A study of Mus musculus with 59 samples.

Results

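A list of 35 genes of blood cells, most of them markers of leukocytes, blood progenitors and granulocytes, was followed through a panel of mouse pluripotent lines to see whether lines made from blood cells still carried blood transcripts. Of the 35 genes, 33 had a probe set that named them alone, out of 11788 named genes on the array; Cd48 and Cebpe had none and were not analysed here. The 33 genes were measured by 42 probe sets, and each gene was represented by its brightest one.

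The panel held 59 lines on 1 Affymetrix array each. Induced pluripotent stem cells (iPSC) came from chimeric mice made with embryonic stem cells (ESC) in which a cassette of the factors Myc, Klf4, Oct4 and Sox2 can be switched on, so each of these 48 iPSC clones carried that cassette. The 4 ESC clones are labelled as targeted KH2 ESC. The animal labelled mouse 1 gave clones from haematopoietic stem cells (HSC, 4 clones), granulocyte-macrophage progenitors (GMP, 4), granulocytes (3) and cells labelled PF (2). Mouse 2 gave 4, 4, 3 and 3 clones of the same origins. Chimera 2 gave 3 clones each from HSC, GMP and granulocytes and 6 from cells labelled TTF, and chimera 1 gave 6 clones from embryonic fibroblasts (MEF). PF and TTF were treated here as 1 fibroblast class, so 31 blood-derived and 11 fibroblast-derived clones of 3 animals could be compared. One further iPSC clone, Adeno-2, came from fetal liver. There were 6 ESC lines made by nuclear transfer from iPSC (NT-ESC): 3 from Adeno-2 (NT-4 to NT-6), 1 from iPSC-7, an HSC-derived clone (NT-7), and 2 from iPSC-15, a granulocyte-derived clone (NT-8 and NT-9). The labels give no age, strain or sex for the animals. Every line grew with serum and LIF on irradiated MEF feeders, which were depleted by preplating for 45 min, so a MEF transcript may come from the line or from a feeder. Clones of 1 animal share that animal, and p-values measure the spread between clones.

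Values are log2 intensities with the mean of every array near 0, so a level below 0 lies under the array mean and a difference of 1 is 2-fold. The median gene had a level of 0.19. The pluripotency genes Nanog (4.18 to 5.24) and Sox2 (3.73 to 4.54) were high on all arrays, and Pou5f1 was between 3.78 and 5.14 on all but iPSC-32, a PF-derived clone of mouse 2, where it was 0.28. The arrays of NT-7, NT-8 and NT-9 stood apart: their values spread less (SD 2.35 to 2.47, against 2.54 to 2.64 on the others), and the mean over 26 genes of other tissues was higher on them (-1.63 to -1.23, against -2.40 to -1.94). Levels below are therefore given over the other 56 arrays, and these 3 lines are described separately.

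Blood cells arise from HSC, which give rise to progenitors such as the GMP and, through them, to granulocytes. Transcription factors set this path: Runx1, Tal1, Lmo2, Lyl1 and Myb act in stem and progenitor cells, Gata1 and Gfi1b in the red cell and platelet lineages, and Spi1 (PU.1) and Cebpa in myeloid cells. Maturing neutrophils fill their granules in order, with Mpo, Elane, Prtn3 and Ctsg early and Ltf, Camp and Ngp later, while Ptprc (CD45), Cd53, Coro1a, Laptm5 and Vav1 mark most leukocytes. Kit, the receptor for stem cell factor, is a progenitor receptor that is also made outside blood, for example in germ cells.

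Most of the 33 genes were near the bottom of the array in every class of line. Of the 33, 26 had a mean level below -1, and 3 were above 0: Kit (1.46), Coro1a (1.06) and Laptm5 (0.19). The median of the 33 means was -2.58. A list of 26 genes specific to tissues other than blood, such as muscle, pancreas and skin, had a median of -2.28, with 23 of 26 below -1 and 2 above 0. Among all genes, 52.2% were above 0.

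**Figure D1:**
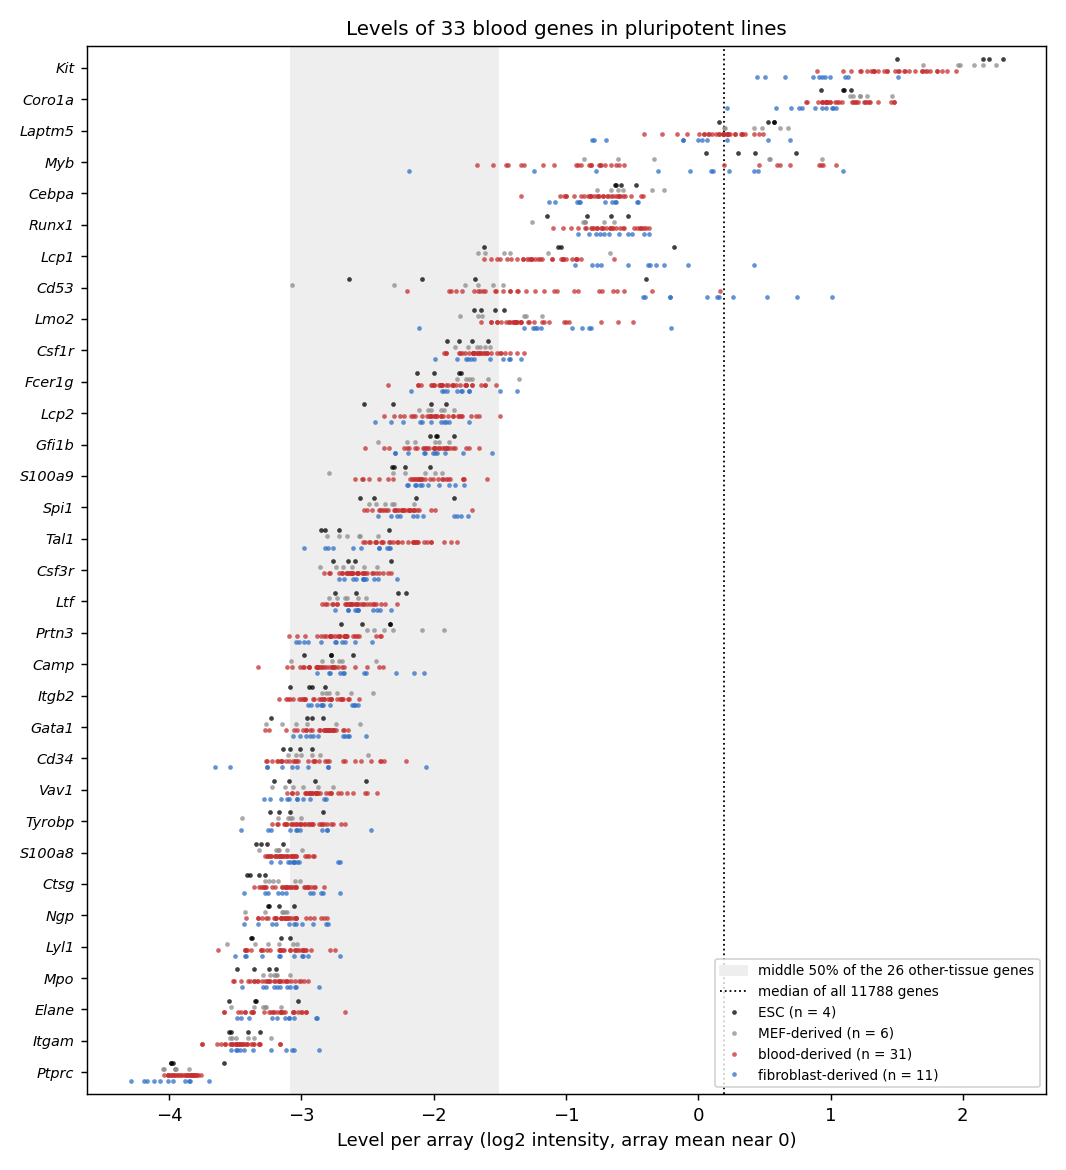
Level of each of the 33 blood genes (vertical axis, ordered by mean) on each array (horizontal axis, log2 intensity) in ESC, MEF-derived, blood-derived and fibroblast-derived lines. Each point is 1 line, the grey band runs from the lower to the upper quartile of the means of 26 genes of other tissues, and the dotted line is the median of all genes (0.19). The blood-derived and fibroblast-derived ranges overlap for each of the 33 genes, and 26 genes have means below -1.

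The 9 genes grouped here as granule protein genes were all below -1 on each of the 56 arrays, with values from -3.59 to -1.59. The group counts S100a8 and S100a9, which encode cytosolic rather than granule proteins of neutrophils. Mpo, the myeloperoxidase of primary granules, ranged from -3.49 to -3.19 in the 4 ESC clones and from -3.29 to -3.09 in the 6 MEF-derived clones. In the 9 granulocyte-derived clones Mpo was at -3.52 at the lowest, -3.25 at the median and -2.98 at the highest. In the 11 fibroblast-derived clones it ranged from -3.45 to -2.87 around a median of -3.17. These ranges overlap throughout, and 9.9% of all genes had a lower mean than Mpo. Elane, the neutrophil elastase gene, had a mean of -3.11 ± 0.26 (SD, n = 9) in granulocyte-derived clones, -3.29 ± 0.13 (SD, n = 11) in HSC-derived clones, -3.17 ± 0.21 (SD, n = 11) in fibroblast-derived clones and -3.32 ± 0.22 (SD, n = 4) in ESC. The highest gene of this group was S100a9, an inflammatory calcium-binding protein, at a mean of -2.11, while its partner S100a8 was at -3.12. The secondary granule genes Ltf (-2.58), Camp (-2.77) and Ngp (-3.12) and the other serine protease genes of primary granules, Prtn3 (-2.67) and Ctsg (-3.12), lay between Elane and S100a9.

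Ptprc, which encodes the CD45 phosphatase of nucleated blood cells, was the lowest gene of the list at a mean of -3.92, and 2.1% of all genes had a lower mean. It lay between -4.04 and -3.76 in the 31 blood-derived clones and between -4.29 and -3.70 in the 11 fibroblast-derived clones. The integrin gene Itgam, which encodes CD11b of granulocytes and macrophages, had a mean of -3.42, and its partner chain Itgb2 one of -2.83. The receptor adaptors Fcer1g (-1.85), Lcp2 (-1.999) and Tyrobp (-3.02) and the exchange factor Vav1 (-2.91) were also below -1, as was Cd53 (-1.14), and Lcp1 (-0.95) was just above it. Among the 9 transcription factors, 6 had means below -1 and none was above 0. Lmo2 lay at -1.25, Gfi1b at -2.03, Spi1 at -2.22, Tal1 at -2.38, Gata1 at -2.86 and Lyl1 at -3.17, while Myb (-0.36), Cebpa (-0.70) and Runx1 (-0.71) were the 3 highest. Of the 4 progenitor and growth factor receptor genes, Csf1r (-1.66), Csf3r (-2.58) and Cd34 (-2.90) were below -1.

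A few genes varied widely between clones of the same origin and animal. The pooled SD within groups was 0.47 for Cd53, more than for 99.2% of all genes, 0.42 for Myb (98.8%), 0.31 for Lcp1 (95.3%) and 0.29 for Laptm5 (94.1%). For Ptprc it was 0.11 and for S100a8 0.12. Not all groups varied alike: Cd53 ran from -2.64 to -0.40 in ESC and from -3.07 to -1.48 in MEF-derived clones. Among blood-derived clones the SDs in mouse 1, mouse 2 and chimera 2 were 0.36, 0.29 and 0.19 for Cd53. For Myb they were 0.15, 0.34 and 0.28, against 0.94 in the PF-derived clones of mouse 2.

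Promoter sequences from RefSeq (assembly GRCm38.p6) were found for 28 of the 33 genes, and the 250 bases upstream of the first listed start were examined. CpG-dense promoters are commonly active in many tissues, and promoters with few CpGs more often drive tissue-restricted genes. These 4 examples range from many to few CGs among the genes described most below, with each CG in capitals and the base next to the start last.

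Myb (chr10:21160985-21161234, minus strand): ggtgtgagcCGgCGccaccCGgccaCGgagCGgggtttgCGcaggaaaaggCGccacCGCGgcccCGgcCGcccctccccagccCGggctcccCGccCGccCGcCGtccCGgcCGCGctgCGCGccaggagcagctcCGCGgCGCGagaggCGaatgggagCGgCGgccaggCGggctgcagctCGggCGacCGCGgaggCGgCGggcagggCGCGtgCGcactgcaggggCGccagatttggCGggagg
Kit (chr5:75574737-75574986, plus strand): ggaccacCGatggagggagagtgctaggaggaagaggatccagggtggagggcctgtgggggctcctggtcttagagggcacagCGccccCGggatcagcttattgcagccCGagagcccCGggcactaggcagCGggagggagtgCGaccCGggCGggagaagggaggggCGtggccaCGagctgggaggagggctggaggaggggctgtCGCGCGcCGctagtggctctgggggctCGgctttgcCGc
Coro1a (chr7:126704817-126705066, minus strand): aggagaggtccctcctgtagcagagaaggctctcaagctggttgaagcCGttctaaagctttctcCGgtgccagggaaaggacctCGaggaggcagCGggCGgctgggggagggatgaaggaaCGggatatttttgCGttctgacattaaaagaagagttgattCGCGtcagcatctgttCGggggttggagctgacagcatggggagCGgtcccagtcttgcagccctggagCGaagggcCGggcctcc
Cd53 (chr3:106790150-106790399, minus strand): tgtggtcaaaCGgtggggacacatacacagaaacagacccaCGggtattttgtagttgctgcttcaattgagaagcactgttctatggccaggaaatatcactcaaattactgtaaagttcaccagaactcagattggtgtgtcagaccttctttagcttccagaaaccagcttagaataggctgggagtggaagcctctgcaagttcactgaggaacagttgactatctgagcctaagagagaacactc

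Myb held 40 CGs, Kit 17, Coro1a 13 and Cd53 2, and their ratios of observed to expected CG were 0.97, 0.60, 0.64 and 0.16. A ratio of at least 0.6 was found in 5 of the 7 genes with a mean level above -1, namely Kit, Coro1a, Myb, Cebpa and Lcp1, and in 1 of the 21 at or below -1, Ptprc. Of the named array genes, 72.3% of those above -1 and 27.6% of those at or below it had such a promoter. Laptm5 (0.21) and Runx1 (0.17) had few CGs at this start although their levels were above -1. The choice of start matters for this count: at another listed start the ratio was 0.98 for Runx1, 0.74 for Tal1 and 0.63 for Kit, and 0.39 for Coro1a, 0.29 for Lcp1 and 0.24 for Ptprc.

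**Figure D2:**
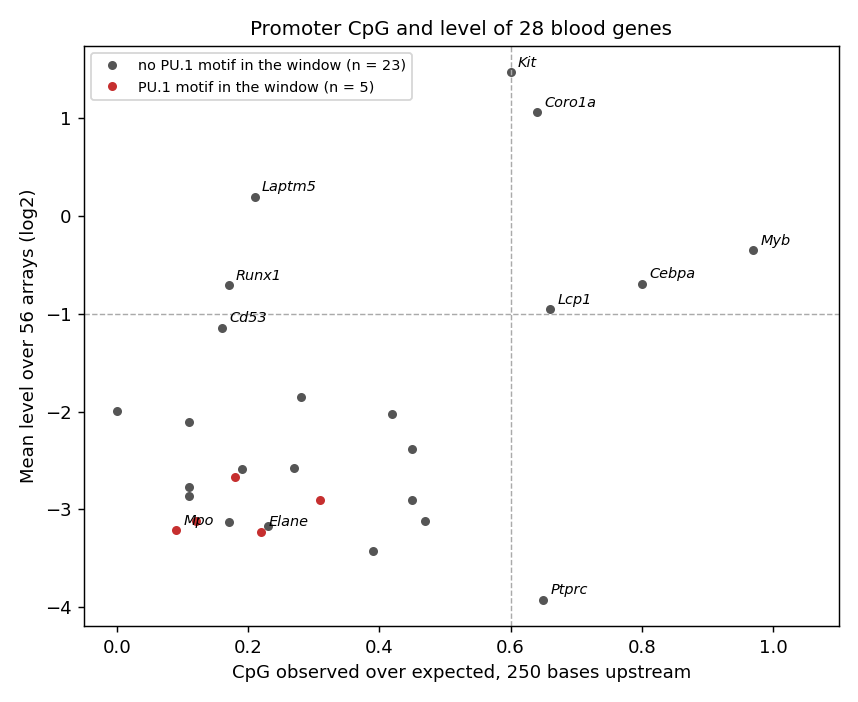
Ratio of observed to expected CG in the 250 bases upstream of the first listed start (horizontal axis) and mean log2 level over 56 arrays (vertical axis) for 28 blood genes, with the 5 genes that hold the PU.1 motif in red. Dashed lines mark a ratio of 0.6 and a level of -1; the upper right holds Kit, Coro1a, Myb, Cebpa and Lcp1, and the red points lie below -2.

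The letters GAGGAAGT, an 8-letter form of the site read by PU.1, were searched on both strands. They were present in 5 of 28 promoters (17.9%): S100a8, Prtn3, Elane, Mpo and Vav1. The share was 2.25% among 9425 array genes and 2.44% among all 32851 starts. The promoters of the granule genes Elane and Mpo are shown with the match in capitals.

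Elane (chr10:79886062-79886311, plus strand): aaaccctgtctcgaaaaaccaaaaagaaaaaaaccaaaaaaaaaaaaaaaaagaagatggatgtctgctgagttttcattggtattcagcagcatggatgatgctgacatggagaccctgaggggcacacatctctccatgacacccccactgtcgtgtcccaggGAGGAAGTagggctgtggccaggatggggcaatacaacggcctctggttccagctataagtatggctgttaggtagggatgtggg
Mpo (chr11:87793534-87793783, plus strand): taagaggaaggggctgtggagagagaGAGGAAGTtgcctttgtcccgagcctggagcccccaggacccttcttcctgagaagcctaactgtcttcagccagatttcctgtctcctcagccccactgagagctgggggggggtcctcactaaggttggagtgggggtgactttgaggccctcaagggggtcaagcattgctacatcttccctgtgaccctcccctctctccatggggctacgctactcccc

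The match began 85 bases before the listed start of Elane and 224 before that of Mpo. The AP-1 letters TGANTCA were in 0 of 28 promoters, against 5.76% of array genes, and the GATA letters AGATAA, also searched on both strands, were in 4 of 28 (S100a9, Tal1, Ltf and Lcp2), against 7.35%. No motif of the 3 contains another. A match is a match of letters, not a bound site.

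The first question was whether lines of blood origin kept more blood transcript than lines of fibroblast origin. In a limma fit of the 42 clones with cell type and animal as terms, 10 of the 33 genes passed an adjusted p of 0.05 (Benjamini-Hochberg over all genes), or 30.3%, and 49.8% of all genes passed in the same comparison. Of these, 5 were higher in blood-derived clones (Kit, Coro1a, Tal1, Vav1 and Ptprc; 28.1% of all genes were called higher) and 5 were lower (Cd53, Lcp1, Camp, Itgam and Spi1; 21.6% of all genes were called lower). The median difference over the 33 genes was -0.04 on the log2 scale. The share called was thus below that of genes at large, and the calls ran both ways. Of the 33 genes 26 had a mean level below -1, as did 4470 of all 11788. No share among genes of similar level is set beside the 30.3%, so the part of level in it was not tested.

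**Figure D3:**
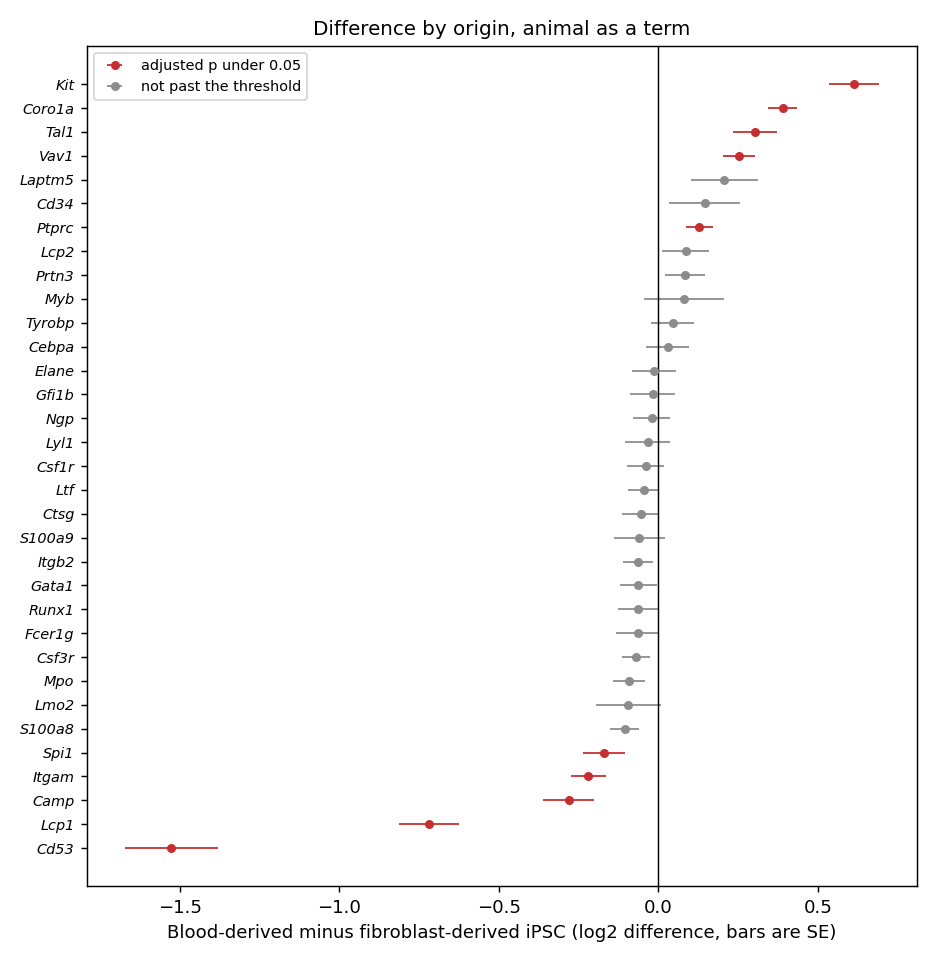
Log2 difference between 31 blood-derived and 11 fibroblast-derived iPSC clones (horizontal axis) for each of the 33 genes (vertical axis, ordered by difference), with bars of 1 SE; red marks the 10 genes past an adjusted p of 0.05. Kit (0.61) is at the top, Cd53 (-1.53) and Lcp1 (-0.72) are at the bottom, and most others lie near 0.

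The largest difference of the list was in Cd53, a tetraspanin of the leukocyte surface, and it ran against the blood origin. In the blood-derived clones Cd53 was at -2.20 at the lowest, -1.37 at the median and 0.16 at the highest. In the fibroblast-derived clones it was at -0.42, 0.14 and 1.01. The 2 blood-derived clones inside the fibroblast-derived range, iPSC-7 and a GMP-derived clone, both came from mouse 1. The difference was -1.53 ± 0.15 (SE; limma adjusted p = 4.83e-11) and -1.41 without iPSC-32.

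Between blood-derived and fibroblast-derived clones, Cd53 differed in the same direction as most fibroblast and feeder markers. Of 26 fibroblast and feeder markers, 24 were lower in blood-derived clones and none was higher, with a median difference of -0.88; Dcn (-1.63) and Twist2 (-1.62) led them. With the mean of that list as a covariate the Cd53 difference was -0.25 (adjusted p = 0.22). That mean was itself 1.55 in blood-derived and 2.30 in fibroblast-derived clones, so the covariate carries much of the class difference. With it, 1787 of all genes were called in place of 5865. A call lost or kept with this covariate, here and below, is therefore no result about that gene alone. In mouse 1, whose blood-derived clones averaged 1.93 on the fibroblast list against 2.19 in its 2 PF-derived clones, Cd53 differed by -0.51. In mouse 2 the list averaged 1.40 against 2.66 and Cd53 differed by -2.12, and in chimera 2 the list averaged 1.26 against 2.15 and Cd53 differed by -1.61. All blood-derived clones of mouse 2 and of chimera 2 were below all fibroblast-derived clones of the same animal for Cd53 and for Lcp1, as for 8.22% and 4.82% of all genes in that direction. The Cd53 difference varied between the animals (limma F test of the interaction, adjusted p = 0.00148; 20.7% of all genes passed it). The part of feeder or residual fibroblast RNA in the Cd53 result was not tested beyond these values, and fewer such cells cannot be told apart from less RNA per cell.

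Lcp1, the actin-bundling plastin of leukocytes, was also lower in blood-derived clones. It ranged from -1.62 to -0.64 around a median of -1.21 there, and from -0.93 to 0.42 around -0.38 in fibroblast-derived clones. The difference was -0.72 ± 0.09 (SE; adjusted p = 4.22e-08), and -0.61 without iPSC-32, the clone with the highest value. It was -0.51 (adjusted p = 0.0404) with the fibroblast list as a covariate. Camp, the cathelicidin of secondary granules, differed by -0.28, Itgam by -0.22 and Spi1 by -0.17, and for all 3 the values of the groups overlapped. With the same covariate the differences were -0.40, -0.20 and -0.30, and the calls were lost (adjusted p = 0.0605, 0.173 and 0.0902). For Camp and Spi1 the call was lost although the difference was larger. Without the covariate, quantile normalization lost the Spi1 call and kept those of Camp and Itgam. The highest Camp (-2.08) and Itgam (-2.87) values were both on iPSC-19, a PF-derived clone whose array had a small spread (SD 2.545). The part of array spread in these small differences of dim genes was not tested further.

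Kit showed the largest difference in the direction of the blood origin. It was at 0.90 at the lowest, 1.51 at the median and 1.95 at the highest in blood-derived clones, and at 0.44, 0.94 and 1.51 in fibroblast-derived clones. The difference was 0.61 ± 0.08 (SE; adjusted p = 2.91e-08), and 0.42 (adjusted p = 0.0413) with the fibroblast covariate. Kit was higher still in lines with no blood origin, at 2.04 ± 0.37 (SD, n = 4) in ESC and 2.02 ± 0.19 (SD, n = 6) in MEF-derived clones. In MEF-derived clones 1.70 was the lowest value, and the difference between MEF and other fibroblast origins was not tested.

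Coro1a, an actin regulator of leukocytes, was at 0.82, 1.06 and 1.48 (lowest, median, highest) in blood-derived clones and at 0.22, 0.88 and 1.04 in fibroblast-derived clones. The difference was 0.39 ± 0.05 (SE; adjusted p = 3.88e-09), and 0.34 without iPSC-32, the clone with the lowest value. In each of the 3 animals, all blood-derived clones were above all fibroblast-derived clones of that animal; such a split in that direction was found for 12.4% of all genes in mouse 1, 11.8% in mouse 2 and 6.8% in chimera 2. ESC (1.07 ± 0.10, SD, n = 4) and MEF-derived clones (1.25 ± 0.11, SD, n = 6) lay within the range of the blood-derived clones, whose mean was 1.11 ± 0.19 (SD, n = 31). The Coro1a call was lost with the fibroblast covariate (0.18, adjusted p = 0.109), as were most calls among all genes.

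The remaining 3 higher genes had low levels. Tal1, a factor of blood stem cells, differed by 0.30 (adjusted p = 0.000399), at a median of -2.24 in blood-derived and -2.55 in fibroblast-derived clones. Vav1, a signalling protein of leukocytes, differed by 0.25 (adjusted p = 4.4e-05), at means of -2.85 and -3.05. Ptprc differed by 0.13 (adjusted p = 0.00937) and lost its call without mouse 2 or without chimera 2. With the fibroblast covariate Vav1 differed by 0.29 and kept its call (adjusted p = 0.0268), while Tal1 (0.28, adjusted p = 0.143) and Ptprc (0.09, adjusted p = 0.47) lost theirs. Over all 31 and 11 clones, no gene of the list separated the 2 classes completely, in either direction; of all genes, 0.288% did so upwards and 0.153% downwards.

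By role, 6 of the 11 leukocyte surface and signalling genes, 2 of 9 transcription factors, 1 of 4 progenitor receptors and 1 of 9 granule protein genes were called, beside 49.8% of all genes. The other 8 granule protein genes differed by between -0.11 (S100a8) and 0.08 (Prtn3), with Mpo at -0.09 ± 0.05 (SE), Elane at -0.01 ± 0.07 and Ctsg at -0.06 ± 0.06. Where a gene had several probe sets, they did not always give 1 answer. The brightest of 5 Runx1 probe sets differed by -0.06 and was not called, while the other 4 were called lower in blood-derived clones, by up to -1.13 (adjusted p = 3.33e-14 over all probe sets). Both Lcp1 probe sets were called lower, 2 of 3 Coro1a probe sets were called higher, and neither of the 2 probe sets of Laptm5 or of Lcp2 was called.

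Other blood genes, from lists beside the 33, were called in both directions between blood-derived and fibroblast-derived clones too, where 28.1% of all genes were called higher and 21.6% lower. Of 15 neutrophil effector genes 4 were lower and none was higher, led by Anxa1 (-0.89), an anti-inflammatory annexin that is not confined to blood. Of 23 leukocyte signalling genes 8 were higher and 2 lower; Inpp5d, the SHIP phosphatase, differed by 0.78 ± 0.14 (SE) and Cd44, an adhesion receptor of leukocytes and fibroblasts, by -1.16 ± 0.12. Of 15 macrophage genes 3 were higher, among them the mannose receptor gene Mrc1 (0.76), and 4 lower, among them Lgals3 (-0.43). Of 16 lymphoid genes 4 were higher, among them Zap70 (0.54), and 4 lower, among them Ebf1 (-0.87). The erythroid and megakaryocyte list had 1 of 12 higher and 3 lower, and the stem and progenitor list had 1 of 15 higher (Hhex, 0.22) and 5 lower (Fli1, -0.28, the largest).

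Origin by origin, against the same fibroblast-derived clones, 10 genes were called for HSC (40.9% of all genes), 9 for GMP (40.6%) and 9 for granulocytes (39.4%). Cd53 differed by -1.48, -1.46 and -1.64 in that order of origins, Kit by 0.59, 0.64 and 0.61, and Coro1a by 0.33, 0.40 and 0.44. These comparisons share their fibroblast-derived clones.

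**Figure D4:**
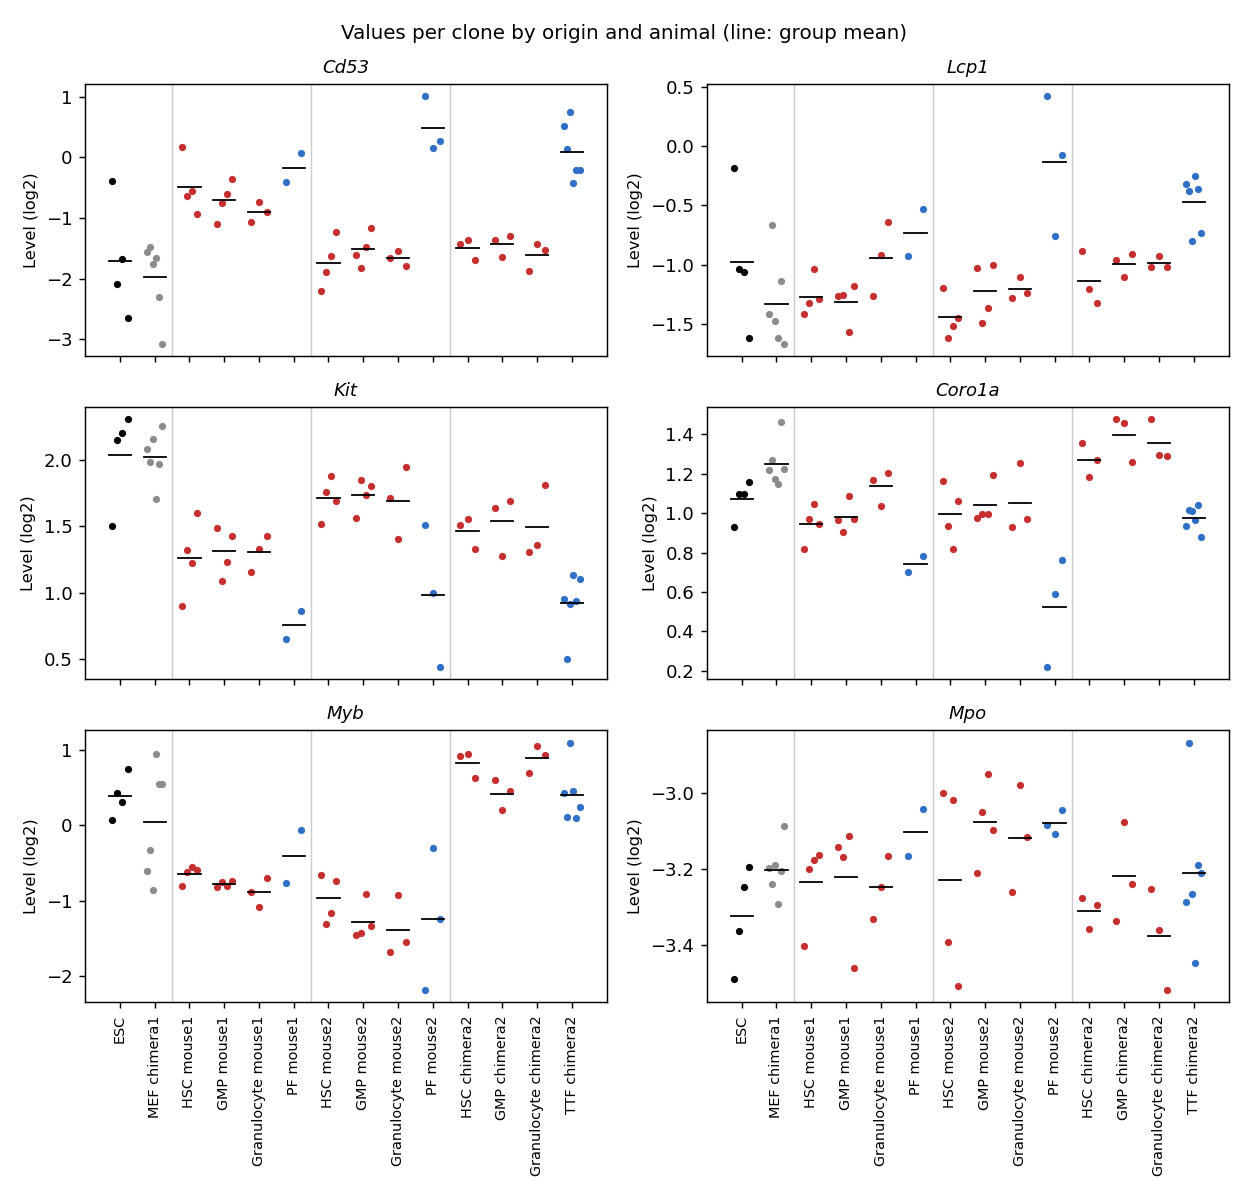
Log2 level (vertical axes, scaled per gene) of Cd53, Lcp1, Kit, Coro1a, Myb and Mpo in each line, grouped along the horizontal axis by origin and animal; points are lines, short black bars are group means, and colours mark ESC (black), MEF-derived (grey), blood-derived (red) and fibroblast-derived (blue) lines. By group mean, Cd53 and Lcp1 are highest in PF- and TTF-derived clones and Kit is lowest there. Coro1a is lower there than in blood-derived clones of the same animal. Myb is higher in chimera 2 clones than in those of mouse 1 and mouse 2, with most ESC in the chimera 2 range. Mpo stays between -3.52 and -2.87.

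The second question was whether the maturity of the blood cell of origin left a trace, with granulocytes at one end and HSC at the other. None of the 33 genes passed between granulocyte-derived and HSC-derived clones (0.0% of all genes did in limma), and 2 had an unadjusted p under 0.05, as did 390 of all genes. These 2 were Lcp1 (0.25 ± 0.12, SE) and Vav1 (0.13 ± 0.06). The 9 granule protein genes differed by between -0.05 (Prtn3) and 0.17 (Elane), with SEs from 0.06 to 0.10. For Elane the 9 granulocyte-derived clones ranged from -3.59 to -2.67 and the 11 HSC-derived clones from -3.59 to -3.15, so the ranges overlap.

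Between GMP-derived and HSC-derived clones 0 of 33 genes passed (0.0% of all genes), and 1 had an unadjusted p under 0.05, as did 351 of all genes. That gene was Itgb2, the beta chain of leukocyte integrins, at 0.13 ± 0.06 (SE). Myb had the most negative difference of the transcription factors in both comparisons, at -0.19 and -0.27, within its spread between clones.

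The third question was how the blood-derived clones compared with ESC, which never passed through a blood cell. In a limma fit of 31 clones and 4 ESC, 5 of 33 genes were called (23.2% of all genes): Tal1 (0.45 ± 0.11, SE; adjusted p = 0.00215) and Ctsg (0.25 ± 0.07; 0.00911) were higher, with 13.3% of all genes called higher, and Kit (-0.54 ± 0.14; 0.00454), Laptm5 (-0.30 ± 0.10; 0.0346) and Prtn3 (-0.24 ± 0.09; 0.0394) were lower, with 9.91% called lower. Tal1 lay at -2.85, -2.82, -2.72 and -2.34 in the ESC clones and between -2.54 and -1.83 in the blood-derived clones. Kit lay at 1.50, 2.15, 2.20 and 2.30 in the ESC clones, and 3 of these were above the highest blood-derived clone (1.95). None of the 5 calls held with the animal of origin as a random block (adjusted p 0.0847 to 0.397), and leaving out ESC-2 left 2 of them called and ESC-3 left 3. Of all genes, 827 were called with the random block, 1659 without ESC-2 and 1583 without ESC-3, in place of 2732.

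The same comparison for the fibroblast-derived clones called 3 of 33 genes, against 24.8% of all genes. Cd53 was higher by 1.85 ± 0.32 (SE; adjusted p = 0.00111), and Kit (-1.13 ± 0.17; 0.000484) and Prtn3 (-0.32 ± 0.11; 0.0368) were lower. The Prtn3 call was lost in 7 of 21 alternative settings (largest adjusted p = 0.15), among them the animal as a random block and leaving out ESC-2, ESC-3 or ESC-4. Cd53 was at -2.64, -2.09, -1.69 and -0.40 in the ESC clones, the last of these in ESC-1. Without iPSC-32 there were 5 called genes, Laptm5 and Lmo2 being the added ones, with 3218 of all genes called in place of 2929. For MEF-derived clones against ESC, 0 of 33 genes were called (0.0% of all genes), while 4 had an unadjusted p under 0.05, as did 997 of all genes. These 4 were Fcer1g (0.27), Itgb2 (0.23), Ctsg (0.19) and Coro1a (0.18). The 3 comparisons share the 4 ESC arrays.

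As a mean over the 33 genes, the classes lay close together. The mean was -2.09 ± 0.05 (SD, n = 4) in ESC, -2.08 ± 0.05 (n = 6) in MEF-derived, -2.09 ± 0.05 (n = 11) in HSC-derived, -2.07 ± 0.05 (n = 11) in GMP-derived, -2.06 ± 0.07 (n = 9) in granulocyte-derived and -2.02 ± 0.05 (n = 11) in fibroblast-derived clones. Blood-derived and fibroblast-derived clones differed by -0.06, with the fibroblast-derived clones higher, and the ranges overlapped within each of the 3 animals. The difference was -0.06 in mouse 1, -0.11 in mouse 2 and 0.004 in chimera 2, and -0.02 over all 42 clones with quantile normalization. The mean over the 26 genes of other tissues shifted in the same direction, at -2.185 in blood-derived and -2.137 in fibroblast-derived clones. The mean over all genes was 0.222 and 0.213. No test is given for a mean over chosen genes.

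Some of the genes also differed between donor animals. In an F test between mouse 1, mouse 2 and chimera 2 in the 42 clones, 9 of 33 genes passed (44.9% of all genes): Myb, Coro1a, Cd53, Kit, Vav1, Itgb2, Lmo2, Cebpa and Itgam. Myb, a factor of dividing progenitors, had the smallest adjusted p (6.38e-14). It was at 0.09 at the lowest, 0.60 at the median and 1.09 at the highest in the 15 clones of chimera 2, at -1.09, -0.75 and -0.06 in the 13 clones of mouse 1, and at -2.19, -1.28 and -0.31 in the 14 clones of mouse 2. All chimera 2 clones, of blood and of TTF origin alike, were above all clones of the other two animals, a pattern that 0.119% of all genes showed in that direction; it was picked out after the values were seen. Of the 4 ESC clones (0.06 to 0.74), 3 were in the range of chimera 2 and ESC-1 was just below it, and the MEF-derived clones (-0.87 to 0.94) spanned both. Whether the animal or a step shared by its clones sets the level cannot be told apart. Kit was also called between animals (adjusted p = 0.000991), with blood-derived means of 1.29 in mouse 1, 1.71 in mouse 2 and 1.50 in chimera 2.

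Nuclear transfer puts the genome of an iPSC through an egg once more, and each NT-ESC was set against the iPSC clone that gave its nucleus, in a limma fit with the donor line as a block. None of 33 genes was called (0.0594% of all genes were, 7 in number), and 17 had an unadjusted p under 0.05, as did 4824 of all genes. The median member lay 0.13, 0.12 and 0.17 above its donor in NT-4, NT-5 and NT-6, and 0.91, 0.63 and 0.41 above it in NT-7, NT-8 and NT-9. The 26 genes of other tissues lay above the donor as well, by medians of 0.28, 0.11 and 0.39 in NT-4 to NT-6 and of 0.97, 0.51 and 0.41 in NT-7 to NT-9. The fit rests on few donor arrays: without Adeno-2, 21 members were called and 6320 of all genes, and without the 3 NT-ESC of blood-derived iPSC it was 4 members (Csf1r, Ctsg, Cd53 and Laptm5) and 2041 of all genes. Cd53 was at -0.89 in Adeno-2 and at -2.28, -2.46 and -2.30 in its 3 NT-ESC. The mean of the fibroblast list was 2.26 in Adeno-2 and 0.75 ± 0.04 (SD, n = 3) in those NT-ESC. In iPSC-7 and NT-7 both were lower after transfer, Cd53 at 0.162 and -1.317 and the list at 2.556 and 1.775. From iPSC-15 they went apart: Cd53 was lower in NT-8 (-2.744) and NT-9 (-1.42) than in the donor (-1.069). The list was higher there, at 2.035 and 2.252 against 1.69.

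**Figure D5:**
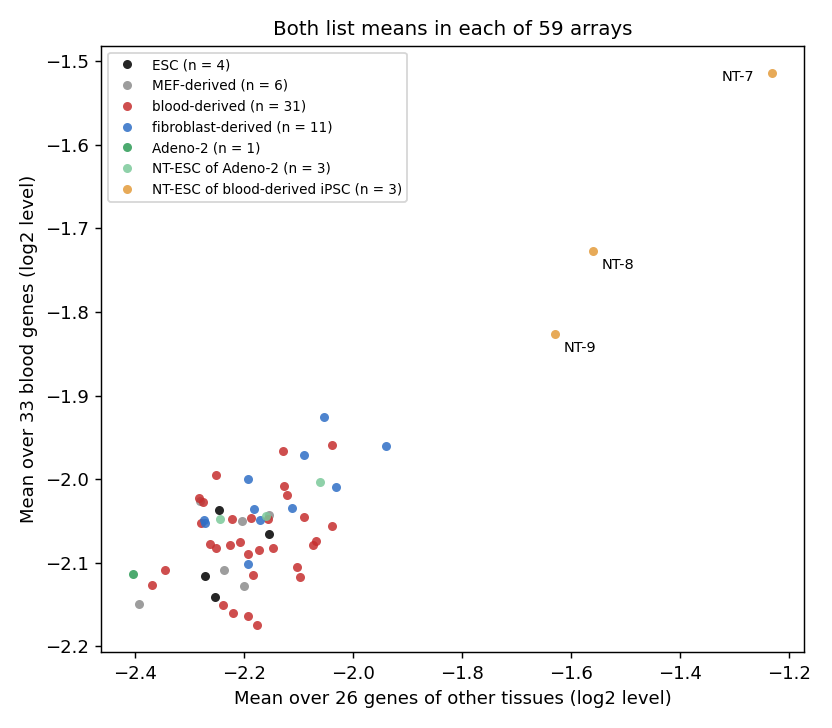
Mean log2 level over 26 genes of other tissues (horizontal axis) and over the 33 blood genes (vertical axis) on each of the 59 arrays, coloured by class. NT-7, NT-8 and NT-9 lie at the upper right on both axes (blood gene means -1.83 to -1.52), apart from the other 56 arrays (-2.17 to -1.93).

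Against ESC, the 3 NT-ESC of blood-derived iPSC had 24 of 33 genes called, 20 higher and 4 lower, while 65.6% of all genes were called (40.2% higher, 25.3% lower) and 23 of the 26 genes of other tissues were. Tyrobp, an adaptor of myeloid receptors, was higher by 1.88 ± 0.30 (SE; adjusted p = 0.000503), Spi1 by 1.28 ± 0.18 (0.000224) and S100a8 by 1.23 ± 0.12 (2.77e-05). Even so Spi1 reached only -1.15, -0.93 and -0.83 on these arrays. The 4 lower genes were Myb (-2.68 ± 0.27; 4.25e-05), Coro1a (-2.01 ± 0.39; 0.00152), Kit (-1.30 ± 0.25; 0.0014) and Cd34 (-0.38 ± 0.15; 0.044), and the first 3 of these were among the highest of the list in ESC. Coro1a was at 0.29 in NT-7, -1.92 in NT-8 and -1.19 in NT-9, against 0.82 in iPSC-7 and 1.17 in iPSC-15. With quantile normalization, which gives all arrays the same spread, 17 members were called (13 higher, 4 lower), with 6379 of all genes called in place of 7729. Csf3r, Elane, Itgam, Itgb2, Ltf, Mpo and Prtn3 were the 7 members that lost their calls. Cd34 kept its call in only 6 of 15 alternative settings and lost it in 9 (largest adjusted p = 0.124), among them each setting that left out 1 ESC clone. For the 3 NT-ESC of Adeno-2 against ESC, 0 of 33 genes were called (0.458% of all genes), and Myb (-1.28), Lmo2 (0.82), Cd34 (0.42) and Kit (-0.68) had an unadjusted p under 0.05.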

How the data were processed

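RNA of 59 mouse lines was hybridised to 1 Affymetrix array each. Per the file as deposited, 22626 probe sets have a log2 intensity on each array; the base of 2 and the centring of each array near 0 were inferred from the values (-4.83 to 6.97), and the authors' method of background correction and summarisation is not stated in the labels. The number of arrays limits the precision, and no depth applies. Probe sets were named through the platform's gene identifiers and GRCm38.p6 symbols: 17977 had 1 gene, 287 several, 4336 none, and 26 an identifier outside that assembly. For each of 11788 genes the brightest probe set over the 59 arrays was kept.

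Tests were made in R 4.3.3 with limma 3.58.1, by lmFit followed by eBayes (2-sided, Benjamini-Hochberg over all genes, threshold 0.05). The procedure was tested on simulated data with 200 changed genes and independent clones. Changes of 0.5 on the log2 scale were recovered in 97.8% for blood against fibroblast and 90.3% for granulocyte against HSC. The share was 63.0% for MEF-derived against ESC, 18.3% for NT-ESC against donors and 19.6% for NT-ESC of Adeno-2 against ESC. In these last 3 comparisons a lack of calls therefore says little about changes of that size. The simulated data held no differences between animals. Changes below 0.5, or in fewer than 200 genes, were not simulated, so for no comparison do these shares apply to them. The 42 clones of 3 animals were fitted with cell type and animal; fits against ESC had no covariates. The pairing of clones by number has no basis in the labels. The members and gene lists were chosen with earlier results of these data known. All members could be named, and from each other list up to 4 called genes with the largest difference. Alternatives covered normalization, dim genes, probe sets, eBayes settings, animals, the fibroblast list as covariate and each array left out. CG ratios and motifs were counted in RefSeq promoters.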

Additional observations from a re-analysis of the deposited data

Results flagged for a closer look

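Single lines stood apart from the rest of their group for 12 of 231 combinations of gene and group of 4 to 10 lines, by the gap to the nearest line relative to the group's range. Chance gives about 1 in 20 such combinations, so 12 is close to what chance gives. Among the ESC, ESC-1 was high for Ptprc (-3.58) and low for Laptm5 (0.16). Among the GMP-derived clones of mouse 2, iPSC-28 was high for Coro1a (1.20), iPSC-25 high for Tyrobp (-2.78) and iPSC-27 low for Gata1 (-2.97). Among those of mouse 1, iPSC-14 was low for Mpo (-3.46). In the HSC-derived groups, iPSC-9 was low for Runx1 (-1.10), iPSC-7 low for Mpo (-3.40) and iPSC-21 high for Camp (-2.50). In the TTF-derived group of chimera 2, iPSC-46 was high for Myb (1.09), and iPSC-45 was low for Kit (0.50) and high for S100a9 (-1.77).

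The difference between blood-derived and fibroblast-derived clones varied between the 3 animals for 4 of the 33 genes, by limma's F test of the interaction, as it did for 20.7% of all genes. These were Cd53 (adjusted p = 0.00148), Ctsg (0.0162), Cebpa (0.0245) and Lcp1 (0.0394). The Lcp1 difference was -0.47 in mouse 1, -1.16 in mouse 2 and -0.56 in chimera 2. For Ctsg it was -0.25, -0.24 and 0.16 in the same order, and for Cebpa 0.22, -0.29 and 0.14. Mouse 1 has 2 and mouse 2 has 3 fibroblast-derived clones, and TTF labels occur only in chimera 2, so animal and fibroblast label cannot be told apart for it.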

How the results depend on the processing

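No member that was called in a comparison changed its direction under any alternative run. Over settings that gave called members a test, 1103 kept their side of the threshold and 70 lost it; those of the blood against fibroblast comparison concern Spi1, Ptprc and, with the fibroblast covariate, Camp, Cd53, Coro1a, Itgam and Tal1. That covariate moved the count from 10 to 5 called members, with Cd34 and Cebpa added, and left 1787 of all genes called. A filter at the 40th percentile of level kept 6 members in the test. The counts became 2 (blood against fibroblast), 2 (blood against ESC), 1 (fibroblast against ESC) and 4 (NT-ESC of blood-derived iPSC against ESC). Of all genes kept by the filter, 4379, 2546, 2593 and 4345 were called in the same order of comparisons. With the animal as a random block, blood against ESC had 0 called members in place of 5 (827 of all genes in place of 2732). In 1 fit over all groups, fibroblast against ESC had 10 in place of 3 (4581 of all genes in place of 2929), and NT-ESC of Adeno-2 against ESC 4 in place of 0 (1218 in place of 54). NT-ESC against donors had 4 in place of 0 without the 3 NT-ESC of blood-derived iPSC. Leaving out 1 array at a time gave 9 to 12 called members for blood against fibroblast, 2 to 7 for blood against ESC, 2 to 5 for fibroblast against ESC, 21 to 27 for NT-ESC of blood-derived iPSC against ESC, 0 to 1 for NT-ESC of Adeno-2 against ESC (Myb without NT-7, Lmo2 without NT-8), 0 to 21 for NT-ESC against donors (21 without Adeno-2, 1 without NT-9), and 0 to 0 for the 3 others. For NT-ESC of Adeno-2 against ESC, 155 of all genes were called without NT-7 and 89 without NT-8. For NT-ESC against donors, 9 were called without NT-9. Comparing the 2 blood stages, no setting called a member. No paired analysis was possible because the replicate numbers of the labels only number clones within an origin, apart from the NT-ESC, which were matched to donors by line; without that donor block 0 members and 0 of all genes were called. Most members have low levels and array background was not measured here, so a low level does not show that a transcript is absent. The NT-ESC results rest on 3 arrays a class.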

Other observations

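Against ESC, the blood-derived clones differed in blood genes beside the 33 as well, where 13.3% of all genes were called higher and 9.91% lower. This fit had no animal term. With the animal as a random block, 827 of all genes were called in place of 2732. Whether the genes named here keep their calls in that setting was not examined. Gata2, a factor of blood stem and progenitor cells, was lower by 1.64 ± 0.18 on the log2 scale (SE; limma adjusted p = 6.45e-08) and was the 1 called gene of 15 on the stem and progenitor list. None of 16 lymphoid and none of 12 erythroid and megakaryocyte genes was called by limma at an adjusted p of 0.05, and 1 and 2 of them had an unadjusted p under 0.05. Of 15 neutrophil effector genes 3 were called higher and 1 lower, and of 15 macrophage genes 1 was higher and 2 lower. Of 23 leukocyte signalling genes 3 were higher (Plcg2, 0.40, Ptpn22, 0.34, and Dock2, 0.34) and 1 was lower, the kinase gene Syk (-0.38). The pluripotency list had 1 of 14 genes higher (Dppa4, 0.28) and 5 lower (Dppa3, -0.64, the largest).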
